A study of Equus caballus with 26 samples.

Results

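The B cell identity genes are 9 genes that mark circulating B lymphocytes, namely CD79A, CD79B, CD22, CD72, MS4A1, BLK, BANK1, PAX5 and EBF1. They were chosen as a list of symbols and each was represented by the brightest of its probes over all arrays. All 9 had a probe, 23 probes in all, among the 24415 gene names of the array. Their mRNA was measured in whole blood of horses ridden over 160 km, before the ride (T0) and after it (T1), on Agilent equine arrays of 1 colour (Cy3). The cohort of 61 horses (41 geldings and 20 females, mean age 10 years, SEM 2) is described as Arabian or half-breed Arabian, although the breed tag of every sample reads Autre. The experimental set (labelled training) held horses 2, 32 and 41, all geldings, each sampled at T0 and at T1. The validation set held 7 horses at T0 (3 females and 4 geldings) and 13 other horses at T1 (3 females and 10 geldings), so that its comparison was between animals. By the methods of the study, most of the horses that it sampled at T0 for this set were later eliminated at a veterinary check, while all those sampled at T1 finished. The labels do not give the outcome of the 7 T0 horses here, and time point and outcome of the ride cannot be told apart in the validation set. The labels name no treatment other than the ride and no group of horses that were not ridden.

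B cells recognise antigen through a membrane immunoglobulin that is held in a complex with the CD79A and CD79B chains, whose cytoplasmic tails start the signal. CD22 and CD72 are surface receptors that damp that signal, MS4A1 encodes the surface protein CD20, BLK is a Src family kinase of the B lineage, and BANK1 is an adaptor between the receptor and its kinases. PAX5 and EBF1 are the transcription factors that commit a progenitor to the B lineage and keep it there, and both are known activators of the CD79A gene. In bulk blood, fewer B cells and less RNA per B cell cannot be told apart.

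Signal is given as log2 intensity minus the 75th percentile of the same array, so that 0 is the 75th percentile. A value of one probe is not comparable with that of another, and levels were compared within a probe only. Between 60.4% and 75.4% of the non-control spots of an array were well above background (median 68.3%). On the 20 T0 and T1 arrays of the validation set, 6 of the 9 genes were well above background throughout. CD79B was so on 12 of 13 T1 arrays, CD22 on 11 of 13 and CD72 on 9 of 13, and CD72 was also dim on 1 of 3 experimental T1 arrays.

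The probes of the receptor chains are shown because CD79A and CD79B are the receptor side of the contrast with the transcription factors, and capitals mark the longest run of bases that they share (9 bases, present in 5 of the 43000 probes of the array that are 60 bases long, 0.0116%). Both are read 5′ to 3′ from the array design, with coordinates of the EquCab1 build on the plus strand. The CD79A probe lies at chrUn:360355771-360355961 and the CD79B probe at chr11:14283975-14284141, both over a span longer than the probe, as happens across an exon junction.
CD79A: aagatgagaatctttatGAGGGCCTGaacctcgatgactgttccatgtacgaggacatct
CD79B: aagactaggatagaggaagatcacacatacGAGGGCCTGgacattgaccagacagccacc

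The probes of MS4A1 are shown because they gave different answers. The brightest lies at chr12:10670313-10670372, and the second starts 42 bases further on, at chr12:10670355-10670414, so that they share 18 bases. Capitals mark runs of at least 4 copies of a unit of 3 bases. The brightest probe holds 2 such runs, of the units AAG and CAG, each of 15 bases. The second probe holds none, and 138 of the 43000 probes (0.321%) hold at least 1.
MS4A1, brightest probe: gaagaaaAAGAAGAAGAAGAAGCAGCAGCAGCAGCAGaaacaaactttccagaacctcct
MS4A1, second probe: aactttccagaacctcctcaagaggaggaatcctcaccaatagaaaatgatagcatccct

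The probes of the transcription factors complete the contrast between the receptor and its regulators. The brightest EBF1 probe lies at chr14:19666982-19667041. A further EBF1 probe, at chr14:20005376-20006635, starts 338394 bases away and belongs to another annotated transcript. The single PAX5 probe spans chr25:33387742-33394678.
EBF1, brightest probe: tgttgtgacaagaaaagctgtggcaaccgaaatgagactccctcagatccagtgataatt
EBF1, probe of another transcript: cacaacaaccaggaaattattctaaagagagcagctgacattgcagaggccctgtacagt
PAX5: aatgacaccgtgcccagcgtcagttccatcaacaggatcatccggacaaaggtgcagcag

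After the ride, the receptor chains CD79A and CD79B and the inhibitory receptors CD22 and CD72 were under-expressed in both sets, with log2 fold changes from −1.51 to −1.99. MS4A1, BANK1, PAX5 and EBF1 were under-expressed in the validation set, where BLK did not pass. In the experimental set, 4 of the 9 genes passed an adjusted p-value of 0.05 in the lower direction, against 3.74% of the 17600 gene names tested. In the validation set, 8 of 9 did so, against 23.8% of 17507. None was over-expressed in either set, where 5.9% and 20.1% of gene names were. The median log2 fold change of the 9 genes was −1.11 in the experimental and −1.43 in the validation set, beside 0.03 and −0.07 over all gene names. All tests were limma moderated tests with Benjamini-Hochberg adjustment over all gene names.

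**Figure D1:**
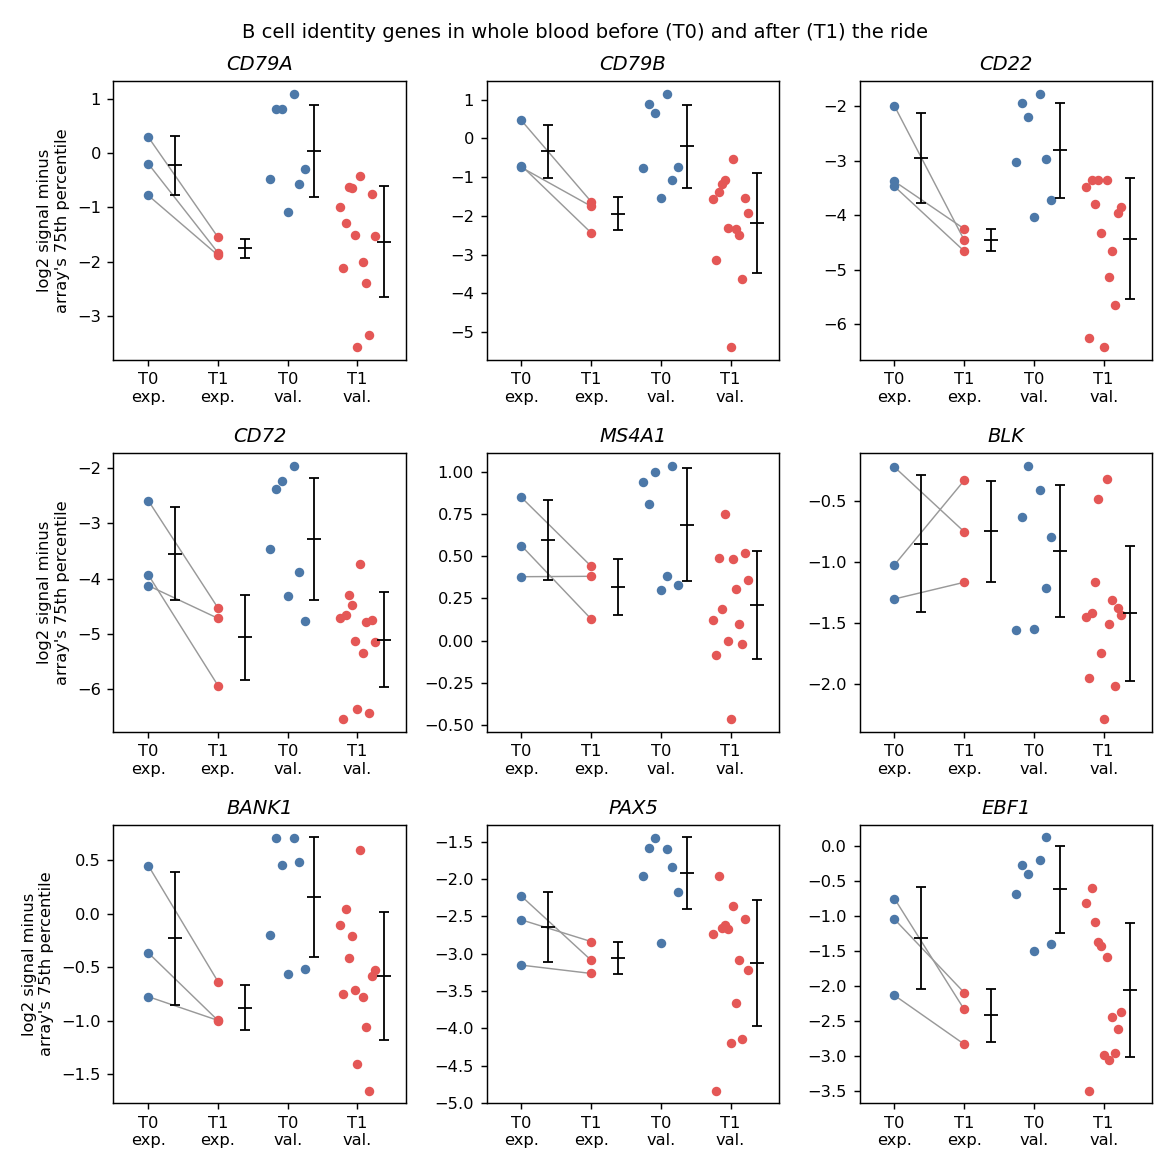
Level of each gene on every array (vertical axis, log2 signal relative to the 75th percentile of its array, scaled separately in each panel) at T0 (blue) and T1 (red) in the experimental (exp.) and validation (val.) sets. Grey lines join the arrays of 1 horse, black marks give the mean and SD. The T1 points of CD79A, CD79B, CD22 and CD72 lie below all T0 points in the experimental set, while the T0 and T1 points of every gene overlap in the validation set.

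CD79A, the signalling chain of the receptor also called Ig-alpha, stood at −0.20, 0.29 and −0.78 at T0 in horses 2, 32 and 41 and at −1.83, −1.55 and −1.88 at T1. Every T1 value was below every T0 value, and the change was −1.53 (SE 0.32, adjusted p-value 0.0275, limma). In the validation set the T0 values ran from −1.09 through a median of −0.29 to 1.09, and the T1 values from −3.57 through −1.51 to −0.42. The groups overlapped, with 8 of 13 T1 horses below the lowest T0 horse and 4 of 7 T0 horses above the highest T1 horse, and the change was −1.67 (SE 0.42, adjusted p-value 0.00295, limma).

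CD79B, the partner chain Ig-beta, fell from −0.70, 0.46 and −0.75 in horses 2, 32 and 41 to −2.44, −1.63 and −1.75. The groups did not overlap, and the change was −1.61 (SE 0.34, adjusted p-value 0.028, limma). Among validation horses it ran from −1.54 through −0.74 to 1.15 at T0 and from −5.39 through −1.93 to −0.53 at T1. Its change there was −1.99 (SE 0.53, adjusted p-value 0.00432, limma), and 9 of 13 T1 horses lay below the lowest T0 horse. Its lowest T1 array, that of horse 21, was not well above background, and without this horse the change was −1.72 (adjusted p-value 0.00264, limma).

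CD22, a sialic acid-binding receptor, fell from −3.47, −1.99 and −3.37 in horses 2, 32 and 41 to −4.65, −4.45 and −4.25. Horse 32, the highest at T0, had the largest drop (−2.46), and the change was −1.51 (SE 0.39, adjusted p-value 0.0464, limma). Across the validation horses it ran from −4.03 through −2.96 to −1.77 at T0 and from −6.42 through −3.95 to −3.35 at T1, a change of −1.62 (SE 0.45, adjusted p-value 0.0059, limma). Among the T0 horses, 5 of 7 exceeded every T1 horse.

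CD72, a lectin-like receptor, fell from −4.13, −2.59 and −3.93 in horses 2, 32 and 41 to −4.72, −4.54 and −5.94. The change was −1.52 (SE 0.38, adjusted p-value 0.0437, limma), and it was smallest in horse 2 (−0.59). Validation values ran from −4.77 through −3.46 to −1.95 at T0 and from −6.55 through −4.79 to −3.73 at T1, a change of −1.83 (SE 0.42, adjusted p-value 0.00137, limma). These 4 genes, CD79A, CD79B, CD22 and CD72, were the only ones of the 9 in which every experimental T1 value was below every T0 value, a pattern that 17.7% of the gene names tested showed. In the validation set no gene of the 9 showed it, against 0.76% of gene names.

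The sizes of the changes, and the experimental calls of the dim genes CD22 and CD72, depended on the background correction and normalization. With the normal-exponential (normexp) correction and quantile normalization, the change of CD22 was −0.60 in the experimental and −0.63 in the validation set, that of CD72 was −0.46 and −0.62, that of PAX5 −0.17 and −0.62, and that of BLK in the validation set −0.32. That of EBF1 was −0.72 and −0.95. CD22 and CD72 then no longer passed in the experimental set (adjusted p-values 0.0848 and 0.126, limma), while CD79A and CD79B did, at −1.13 and −1.23. With quantile normalization alone, CD72 changed by −1.77 in the experimental set and did not pass (adjusted p-value 0.0698, limma), while CD22, CD79A and CD79B did. All 8 validation calls also passed under both settings.

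Without the horse as a block, 2 genes passed in the experimental set, CD79A and CD79B. Without horse 2 or without horse 32 none of the 9 passed, and the share of all gene names called lower went from 3.74% to 0.159% and 0.4659%. The changes themselves were then −1.47 and −1.37 for CD79A and −1.55 and −1.37 for CD79B. Without horse 41 there were 3 calls, CD22, CD79A and CD79B, with 7.16% of gene names called lower. Over all gene names the counts of calls in that set were 658 lower and 1038 higher (61.2% higher), and the share higher was 48.0% with normexp, 50.2% with quantile normalization and 47.5% with the deposited series values.

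MS4A1, which encodes CD20, gave by its brightest probe 0.38, 0.85 and 0.56 at T0 in horses 2, 32 and 41 and 0.38, 0.44 and 0.13 at T1. The values overlapped and the change of −0.28 did not pass (SE 0.31, adjusted p-value 0.585, limma). Over the validation arrays this probe ran from 0.30 through 0.81 to 1.04 at T0 and from −0.47 through 0.19 to 0.75 at T1, and its change of −0.48 was the smallest of those that passed (SE 0.16, adjusted p-value 0.0201, limma).

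The second MS4A1 probe, fitted on its own in an alternative added after the data had been seen, changed much more. It fell by 1.61, 1.64 and 1.71 in horses 2, 32 and 41, a mean change of −1.66 (SE 0.29, adjusted p-value 0.0139 over 30397 probes, limma). Its validation change was −1.41 (SE 0.28, adjusted p-value 0.000441 over 30339 probes, limma), with means of 0.42 ± 0.59 (SD) over the 7 T0 horses and −0.99 ± 0.67 over the 13 T1 horses. Both probes were well above background on all 26 arrays. The brightest probe carries the 2 runs of repeated units shown in capitals. The part of those runs in the difference was not tested.

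BANK1, EBF1 and CD72 also had more than 1 probe. The 4 BANK1 probes changed by −0.52 to −0.68 in the experimental and by −0.72 to −0.77 in the validation set. The 5 EBF1 probes at neighbouring positions changed by −1.02 to −1.20 and by −1.39 to −1.43, and 2 of the 5 passed in the experimental set when probes were fitted one by one. The EBF1 probe of another transcript changed by −0.06 (adjusted p-value 0.949) and −0.42 (adjusted p-value 0.361) and passed in neither set (limma), and the last EBF1 probe, at chr14:20023242-20023301, changed by −0.68 (adjusted p-value 0.155) and −0.97 (adjusted p-value 0.0347, limma). CD72 had 2 probes that changed by −1.52 and −1.62 in the experimental set and by −1.83 and −1.79 in the validation set. Its other 3 probes, at positions starting up to 65 bases upstream, changed by −2.88 to −3.11 in the validation set, with a signal well above background on 6 or 7 of 7 T0 arrays and on 1 of 13 T1 arrays. On the experimental T1 arrays none of these 3 was well above background. Near background the size of a change is uncertain, which holds for these 3 probes in both sets. Set against the lowest signal well above background, the 2 that could be tested in the experimental set were 3.75-fold and 3.88-fold lower at T1. These folds are no strict bound, since a signal that is not well above background can exceed that level. Both passed the experimental filter on dim probes through their T0 arrays alone, which favours a lower T1, so that no p-value is given. In the validation set the 3 probes passed it mostly through T0 arrays, which favours a lower T1 there too. With the mean of all 5 probes, which includes these 3, the change of CD72 was −2.23 in the experimental and −2.54 in the validation set.

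**Figure D2:**
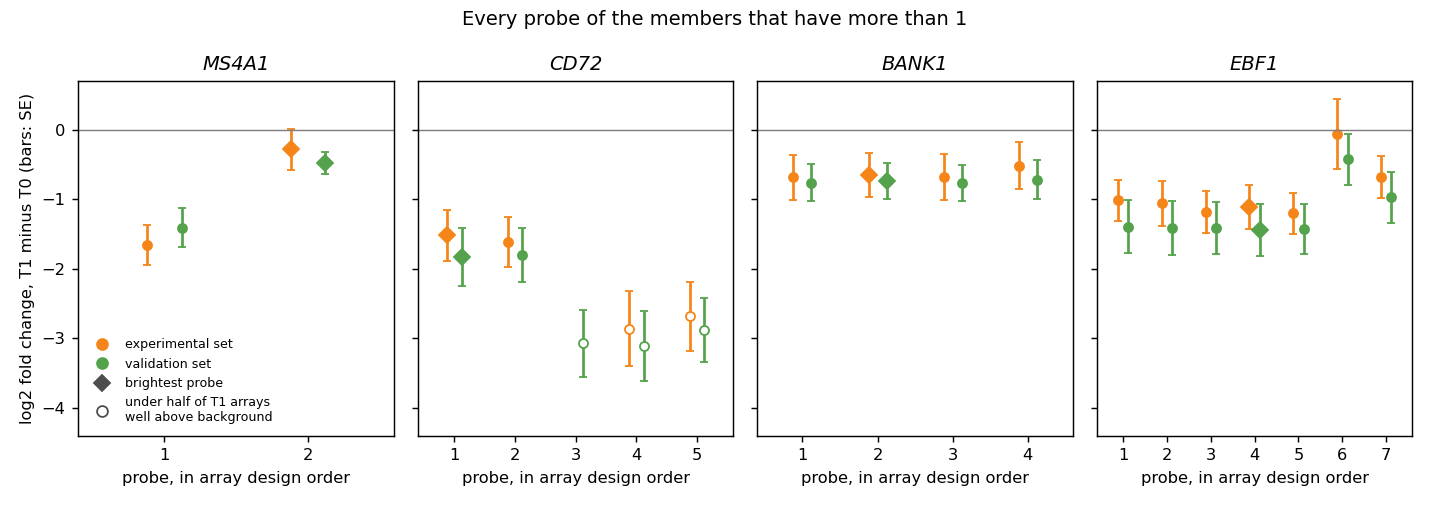
Change of every probe of MS4A1, CD72, BANK1 and EBF1 (vertical axis, log2 fold change T1 minus T0; bars, SE) in the experimental (orange) and validation (green) sets; diamonds mark the brightest probe and open symbols probes well above background on fewer T1 arrays than not, whose T1 signal is near the array's lower end. The brightest MS4A1 probe, at −0.28 and −0.48, stands apart from the second at −1.66 and −1.41, and probe 6 of EBF1, of another transcript, lies closest to 0 at −0.06 and −0.42. One CD72 probe was too dim for the test in the experimental set and has no orange point.

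BLK, the Src family kinase, stood at −1.02, −0.22 and −1.30 at T0 in horses 2, 32 and 41 and at −0.33, −0.75 and −1.16 at T1. It was higher at T1 in horses 2 and 41 and lower in horse 32, with a mean change of 0.10 (SE 0.35, 95% interval −0.70 to 0.90, adjusted p-value 0.873, limma), and without horse 2 the sign turned, to −0.20. BLK in the validation set ran from −1.56 through −0.79 to −0.20 at T0 and from −2.28 through −1.43 to −0.32 at T1. The change of −0.51 did not pass (SE 0.25, 95% interval −1.02 to 0.0046, adjusted p-value 0.102, limma). With the scan day as a further term it was −0.81 and passed (adjusted p-value 0.0117, limma).

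BANK1, the adaptor, fell by 0.22, 1.09 and 0.63 in horses 2, 32 and 41, from −0.77, 0.45 and −0.37 to −0.997, −0.635 and −0.998. The mean change of −0.65 did not pass (SE 0.33, adjusted p-value 0.226, limma). Validation values of BANK1 ran from −0.56 through 0.46 to 0.71 at T0 and from −1.65 through −0.58 to 0.59 at T1, and the change of −0.73 passed (SE 0.26, adjusted p-value 0.0276, limma). The log2 fold changes of BLK and BANK1, which act inside the cell below the receptor, were thus closer to 0 than those of either receptor chain in both sets, a difference between probes that was not tested.

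PAX5, the factor of B lineage commitment, stood at −3.15, −2.23 and −2.55 at T0 in horses 2, 32 and 41 and at −3.26, −3.09 and −2.84 at T1. The values overlapped and the change of −0.42 did not pass (SE 0.32, adjusted p-value 0.42, limma). PAX5 in the validation set ran from −2.86 through −1.84 to −1.45 at T0 and from −4.83 through −2.74 to −1.95 at T1, and the change of −1.20 passed (SE 0.33, adjusted p-value 0.00514, limma).

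EBF1, which acts with PAX5, stood at −2.13, −1.05 and −0.76 at T0 in horses 2, 32 and 41 and at −2.83, −2.09 and −2.33 at T1. It was lower at T1 in all 3 horses, and the change of −1.11 did not pass (SE 0.33, adjusted p-value 0.0694, limma). EBF1 in the validation set ran from −1.51 through −0.41 to 0.12 at T0 and from −3.49 through −2.38 to −0.60 at T1, and the change of −1.43 passed (SE 0.37, adjusted p-value 0.00388, limma). Of the 9 genes, 7 were lower at T1 in all 3 experimental horses, as were 25.5% of the gene names tested. The exceptions were BLK and MS4A1.

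**Figure D3:**
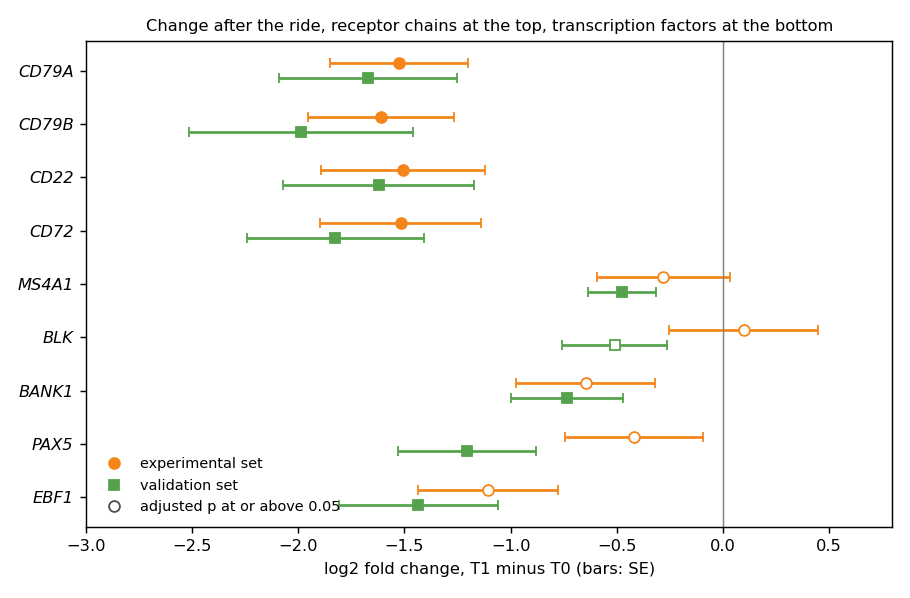
Change of each gene after the ride (horizontal axis, log2 fold change T1 minus T0; bars, SE) in the experimental (circles) and validation (squares) sets, with open symbols where the adjusted p-value was 0.05 or more. The receptor chains and inhibitory receptors lie between −1.51 and −1.99 in both sets, and BLK in the experimental set is the only point above 0.

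The receptor chains were set against the transcription factors within each array, as the mean of CD79A and CD79B minus the mean of PAX5 and EBF1. The difference was smaller at T1 than at T0 by 1.28 in horse 2, 1.02 in horse 32 and 0.12 in horse 41, a mean change of −0.81 ± 0.61 (SD, n = 3). The 7 T0 validation horses averaged 1.19 ± 0.70 (SD) and the 13 T1 horses 0.68 ± 0.74, a change of −0.51, which is less than the SD within a group (0.72). The change was negative in both sets under each normalization tried, from −0.94 to −0.74 in the experimental and from −0.57 to −0.51 in the validation set. Females were 3 of the 7 T0 and 3 of the 13 T1 validation horses. The 3 T0 females (horses 14, 15 and 29) were the highest at T0 in both receptor chains. The contrast was not adjusted for sex, its direction was not examined within either sex, and the part of sex in its validation change was not tested. As the genes were chosen with results known and the probes differ in their response, no p-value is given.

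For none of the 9 genes did the difference between the sets pass the test. The experimental minus validation difference ranged from 0.09 for BANK1 to 0.79 for PAX5 (95% interval −0.51 to 2.09), and that of BLK was 0.61 (95% interval −0.43 to 1.65). No gene name of the 18021 tested passed (0.0%, limma with horse as a random block), and 111 had an unadjusted p-value under 0.05. That is far fewer than the 1 in 20 that a calibrated test would give without any difference. Not passing therefore does not show that the sets agree. The intervals were wide (CD79B, −1.71 to 2.47) and included differences as large as the changes themselves.

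The validation arrays were scanned on 7 days, of which 5 held both time points. Within these 5 days, 8 genes were lower at T1 on all 5, and BLK on 4. The within-day change ran from −4.66 to −0.41 for CD79A, from −6.54 to −0.16 for CD79B, from −2.60 to −0.44 for PAX5 and from −1.88 to 0.27 for BLK. Each of the 5 days held 1 or 2 T0 arrays and 1 to 4 T1 arrays. The lowest value of each of these genes came from a day with 1 T0 array (horse 29, a female) and 1 T1 array (horse 21, a gelding). On the array of horse 21, CD79B was not well above background. With the scan day as a term all 9 genes passed, and CD79A stood at −2.22 (SE 0.44, adjusted p-value 0.00127, limma). BANK1 moved from −0.73 to −1.11. The experimental arrays gave no such fit, since scan day, horse and time point together are more terms than the 6 arrays allow. The T0 and T1 arrays of each experimental horse were on different slides and were scanned on different days. Each paired change thus includes a difference of slide and scan day, whose part was not tested.

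The horses that were low in one gene tended to be low in the others. At T1 in the validation set, horse 21 was the lowest of 13 for 5 of the 9 genes (CD79A, CD79B, CD22, MS4A1 and BLK) and horse 4 for 3 (CD72, PAX5 and EBF1), while horse 24 was the highest for 5. CD22 was not well above background in horses 4 and 21, nor CD72 in horses 4, 21, 46 and 62. The order of these horses in CD22 and CD72 is therefore uncertain, and the means that follow include those values. The mean of the 9 genes was −3.67 in horse 21, −3.32 in horse 46 and −3.24 in horse 4, against −1.25 in horse 24. The share of spots well above background was 60.4% on the array of horse 21, 65.2% on that of horse 46 and 70.2% on that of horse 24, and it was 60.8% on that of horse 62, whose mean was −2.18. Over all horses, the mean of the 9 genes and the share of spots well above background correlated at r = 0.50 among the 13 T1 horses and r = 0.31 among the 7 T0 horses, given as a description with no p-value, and the part of that share in the agreement between genes was not tested. At T0, horse 18, a gelding, was the lowest of 7 for 7 of the 9 genes and horse 29, a female, the highest for 5. Horse 32 was the highest of the experimental horses at T0 for 8 genes.

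Correlations across the 13 T1 horses were computed for the 6 genes well above background on every T1 array (CD79A, MS4A1, BLK, BANK1, PAX5 and EBF1), 15 pairs in all. Pearson's r was positive for all 15, from 0.44 to 0.88 (median 0.72), and 13 pairs passed after Benjamini-Hochberg adjustment of the two-sided permutation p-values, as did 13 by Spearman's rho. The strongest pair was CD79A with BANK1 (r = 0.88, adjusted permutation p-value 0.0009, rho = 0.87, adjusted permutation p-value 0.00558), where r was 0.76 without the 2 horses farthest from the median of CD79A. PAX5 and EBF1 followed (r = 0.85, adjusted permutation p-value 0.00127, rho = 0.75, adjusted permutation p-value 0.00775, r = 0.79 without the 2 horses farthest from the median of PAX5). The weakest were EBF1 with MS4A1 (r = 0.44) and EBF1 with BLK (r = 0.52), and neither passed. All points of a pair share an array, and the arrays differed in the share of spots well above background, which correlated with the mean of the 9 genes as given.

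CD79A and CD79B followed each other most closely. Over the 12 T1 horses in which both were well above background, a pair added after the data had been seen, r was 0.94 and rho 0.96 (each with a permutation p-value of 0.00001, the smallest that the permutations can give), and r was 0.93 without the 2 horses farthest from the median. At T0 the 7 horses stood in the same order for both genes (rho = 1). The T0 values of CD79A fell into 3 horses above 0.80, which were the females, and 4 at or below −0.29, which were the geldings. CD79B, CD22, CD72, BLK and PAX5 also had all females above all geldings at T0. The horses are too few for a relation within either sex, so that coefficients over the 7 horses rest largely on that gap. The part of sex in the gap was not tested. MS4A1 did not share the gap, since the T0 horses highest in CD79A and in MS4A1 differed (horses 29 and 40).

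**Figure D4:**
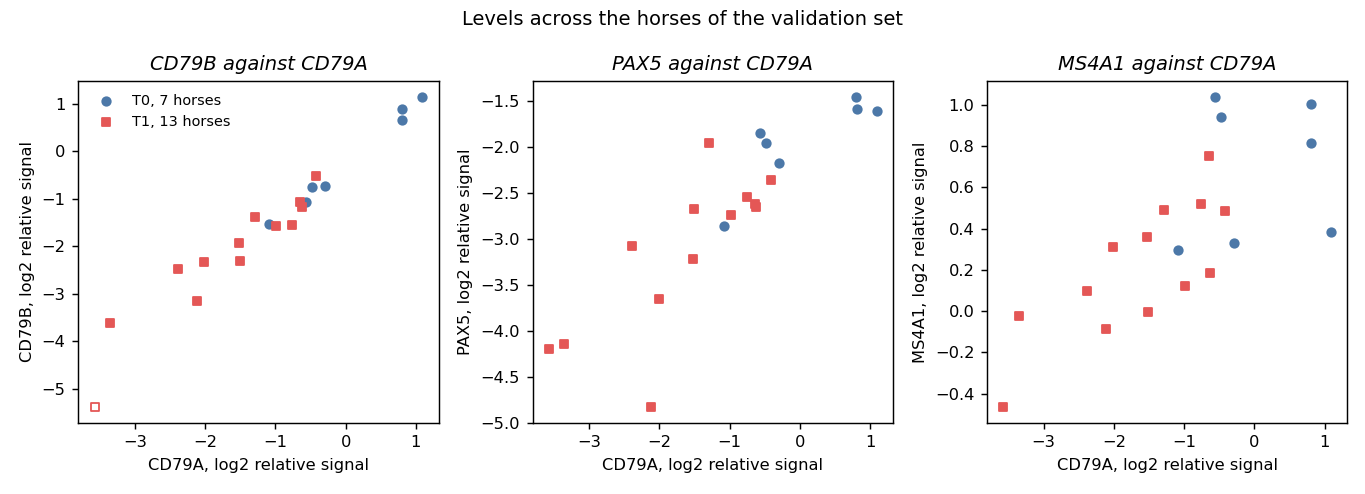
Levels of CD79B, PAX5 and MS4A1 (vertical axes) against CD79A (horizontal axes), each as log2 signal relative to the 75th percentile of its array, in the validation horses at T0 (circles) and T1 (squares); the open square is an array where CD79B was not well above background. CD79B rises with CD79A along 1 line at both time points, while MS4A1 by its brightest probe is scattered at T0.

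After the mean of each set and time point had been subtracted, each gene was compared with the mean of the other 8 over the 26 arrays. The coefficient was 0.96 for CD22, 0.92 for CD79B, 0.90 for CD79A, 0.88 for CD72, 0.88 for BANK1, 0.87 for PAX5, 0.78 for BLK, 0.72 for EBF1 and 0.67 for MS4A1. For the second MS4A1 probe it was 0.76, and for the EBF1 probe of another transcript 0.35. Of 9390 gene names well above background on all arrays, those most like the mean of the 9 genes were POU2F2 (r = 0.92), which encodes the B cell octamer factor Oct-2, RHBDF1 (0.92), an inactive rhomboid protease, PYGM (0.90), the muscle form of glycogen phosphorylase, TXLNG (0.90) and APEX1 (0.88), a DNA repair endonuclease. These coefficients describe 26 arrays of 23 horses and have no p-value.

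Other genes of B cells were read from lists of the same lineage. Of the 13 B cell surface genes tested, 11 were under-expressed in the validation set and 4 in the experimental set, and none was over-expressed in either. Of all gene names, 23.8% and 3.74% were under-expressed and 20.1% and 5.9% over-expressed in the validation and experimental sets. FCER2, the low-affinity IgE receptor CD23, changed by −1.92 and −1.62, and VPREB3, which binds the immunoglobulin heavy chain during assembly, by −1.87 and −1.79, in the validation and experimental sets, and each passed in both.

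Genes of B cell receptor signalling passed in both directions, with 5 of 14 over-expressed and 3 under-expressed in the validation set (20.1% and 23.8% of all gene names were), and 1 in each direction in the experimental set (5.9% and 3.74%). LYN, a Src family kinase also found in myeloid cells, changed by 1.15 and 1.39 and passed in both sets. VAV1, an exchange factor used across blood lineages, changed by 0.91 and 1.09 and passed in the validation set. STAP1, an adaptor of B cells, changed by −1.64 and −1.58 and passed in both sets. BLNK, the adaptor below the receptor, changed by −1.12 and −0.78 and passed in the validation set.

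A further list held 15 tested genes named as transcription factors of B cells, which does not mean that each is confined to B cells. Of these, 11 were under-expressed and 1 over-expressed in the validation set, with 3 under-expressed in the experimental set. The shares of all gene names were 23.8% lower and 20.1% higher in the validation set, and 3.74% lower and 5.9% higher in the experimental set. BCL11A changed by −1.70 in the validation and −1.88 in the experimental set, and ID3 by −1.52 and −1.60, and both passed in both sets. SPI1, which encodes PU.1 and is also a factor of myeloid cells, was the over-expressed gene, at 0.84, and its 1.14 in the experimental set did not pass. Of 8 genes of antibody-secreting cells, 1 was over-expressed in each set, with 1 under-expressed in the validation and 2 in the experimental set. The validation counts were below the shares of all gene names, 20.1% higher and 23.8% lower. PRDM1, the regulator of plasma cell formation that other lymphocytes use too, rose by 1.04 and 1.26, and CD27, a surface receptor also found on T cells, changed by −1.35 and −1.54. Both passed in both sets.

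Markers of other blood cells moved at the same time. Over all gene names, 23.8% were under-expressed and 20.1% over-expressed in the validation set, and 3.74% and 5.9% in the experimental set. In the validation set 13 of 14 T cell genes and 8 of 11 NK cell genes were under-expressed, 1 NK cell gene was over-expressed, and 5 of 7 monocyte and 7 of 8 neutrophil genes were over-expressed. In the experimental set, 8 of 14 T cell and 6 of 11 NK cell genes were under-expressed, and 5 of 7 monocyte and 5 of 8 neutrophil genes over-expressed. The summed signal of the T cell genes, on the log2 scale, ran from 4.71 to 5.97 at T0 and from 4.15 to 4.96 at T1 in the validation set, and that of the neutrophil genes from 7.24 to 9.72 and from 9.01 to 11.02. That of the NK cell genes ran from 4.62 to 7.40 and from 3.71 to 5.06, and that of the monocyte genes from 7.04 to 8.44 and from 8.28 to 9.63. None of the 4 platelet genes passed in either set and 1 of 3 erythroid genes was over-expressed in each, too few genes to set against the shares of all gene names. The part of these shifts in the changes of the B cell identity genes was not tested.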

How the data were processed

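Whole-blood RNA from PAXgene tubes was labelled with Cy3 and hybridised by the authors to a custom equine Agilent array. The deposited scanner files hold an intensity per spot, background-corrected by Feature Extraction 10.7.3.1. The authors' series table holds log2 values, which ranked with the background-subtracted intensity (Spearman's rho at least 0.998 on each array, column medians 7.09 to 7.10), so that they were used as an alternative; how they were scaled is not given in the sources used here.

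Log2 intensity minus the array's 75th percentile was computed from 43803 non-control spots, without 386 outlier spots. The 431 saturated spots were kept; all lie on the array of validation horse 34, scanned in 1 pass. A gene name was tested if 1 or more of its probes exceeded background clearly (Agilent's well-above-background flag) on 3 or more of 6 experimental or 7 or more of 20 validation arrays. limma 3.58.1 in R 4.3.3 was used, with the horse as a block in the experimental set because both arrays come from the same animal. Deviations of T0 and T1 arrays of horses 2, 32 and 41 from their group means correlated at −0.01, 0.21 and 0.19. Those of T0 and T1 arrays of different horses correlated at −0.35 to 0.17. The consensus correlation by horse in the fit of all 26 arrays was −0.06, so that these values do not show a pairing. Validation arrays were fitted without a block, and the difference between sets with the horse as a random block on 26 arrays. Permutation tests drew 100000 resamples for 13 horses and all 5040 orders for 7. Fits were tested on simulated data. Precision is limited by the number of horses. The experimental p-values rest on the spread of the changes within horses and the validation p-values on the spread between horses. Each horse gave 1 array per time point, so that both include the spread between arrays. The permutation p-values rest on reordering the horses.

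The members and lists were chosen with earlier results of these data known. Named genes were all members, the 2 called genes that rose and fell most in each further B cell list in the validation set, and the 5 genes most like the members. One item is not reported here. CD79B, CD72 and others were named from the array's descriptions and current gene tables. Listed genes that had no probe under their symbol were not analysed here. Alternatives were normalization, background correction, filters, probe summary, blocks, scan day, slide, sex and left-out horses.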

Additional observations from a re-analysis of the deposited data

How the results depend on the processing

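All 8 validation calls kept their direction and passed under the scan day, slide and sex terms, each normalization, averaged probes, no filter, and without horses 21, 34 or 47. Their size was not the same throughout. With sex as a term the median log2 fold change of the 9 genes was −1.22, against −1.43 without it. When a gene name had to be well above background on each array, 6 of the 9 genes could be tested and 5 passed. The 4 experimental calls (3.74% of all gene names called lower) became 0 when all 26 arrays were fitted together (6.68%), 0 without a filter on dim probes (0.0246%), 3 with quantile normalization (5.48%), 2 with normexp in addition (6.99%) and 2 from the series table (6.59%), and leaving out 1 horse in turn gave 0 to 3. The fold changes are the same with all 26 arrays and without a filter, −1.53 for CD79A and −1.61 for CD79B. Without the replicate block, which removes the pairing of T0 and T1 within a horse, 2 were called. Over all gene names, 1696 experimental calls became 2992 with all 26 arrays, 2806 with the filter on every array, 46 without a filter and 114 to 2961 with 1 horse left out; the cause was not tested. At T0, 12 of 36 pairs of genes correlated across horses by Pearson's r, 1 by Spearman's rho and 7 by Pearson's r after quantile normalization.

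Signs turned for BLK in the experimental set without horse 2 (−0.20; leaving out 1 horse gave −0.20 to 0.41) and, for the difference between sets, for CD22 (−0.031) and CD72 (−0.071) with quantile normalization, MS4A1 with the mean of its probes (−0.027) and BANK1 with normexp (−0.016) and the series values (−0.017), none of which passed in either direction. Signal over background limits CD22 and CD72 at T1.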
